A study of Mus musculus with 7 samples.

Results

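The complement system genes examined here were 8 of the 33696 genes in the feature list, found by symbol: C1qa, C1qb and C1qc (the chains of the C1q recognition molecule), C3 and Cfb (the central component and a component of the alternative pathway), C3ar1 and C5ar1 (receptors for the C3a and C5a fragments) and Serping1 (the C1 inhibitor). Their unique molecular identifiers (UMIs) were counted in single cells of 7 subcutaneous allografts in female C57/B6 hosts, formed by JW23.3, a male line of malignant peripheral nerve sheath tumor cells with mutant Nf1 and Trp53. The cells were implanted on day 0, groups were drawn at random on day 7, and tumors were taken on day 21. Radiation was given to 4 tumors as 5 fractions of 2 Gy, 1 a day, and 3 control tumors went without it. Each library held 1 tumor of 1 mouse, so the tumor was the replicate, and all tumors came from a single line, which limits the study as a model of the disease.

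C1q binds antibody or damaged surfaces and starts the classical pathway, in which C1r and C1s cleave C4 and C2. All routes meet at the cleavage of C3, and factor B (Cfb) forms the convertase that amplifies this step. The fragments C3a and C5a act on C3ar1 and C5ar1, and Serping1 restrains the classical and lectin proteases. In tissues, C1q is known as a product of macrophages and dendritic cells, whereas C3, factor B and the C1 inhibitor are also made by stromal cells and respond to interferon.

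The libraries held 39537 cells and 646559899 UMIs, with 2859 to 8452 cells and 53496570 to 153044123 UMIs in each, and 34296 cells remained after a filter on depth and quality. Cells were sorted by how many markers of a class they carried, with no complement gene among the markers, into gates for macrophages (11528 cells), tumor cells (14251), T/NK cells (1140), endothelial cells (450), fibroblasts (310) and pericytes (195), and 6422 cells were left in no gate. No doublet caller was run. Cells that carried markers of several classes were left in no gate, and 190 of 39347 barcodes occurred in more than 1 library. Levels of the markers used for sorting describe the gates and do not test them, since the sorting itself makes them high. Csf1r, the receptor for macrophage colony-stimulating factor, stood at 538 CPM (UMIs of the gene scaled to 1000000 UMIs of the gate) in the macrophage gate. It stood at 1.28 CPM in the tumor cell gate, and Rgs5, a pericyte marker, was at 6983 CPM in the pericyte gate. The fibroblast gate held its 9 markers at 2831 to 6831 CPM in sum, and beside them the 10 tumor cell markers at 888 to 1342 CPM and the 8 pericyte markers at 146 to 382 CPM. The tumor cell gate held the fibroblast markers at 1379 to 2199 CPM. The part of these other markers in the C3, Cfb and Serping1 levels was not tested. The Schwann lineage factor Sox10 was at 0.0208 CPM in the tumor cell gate although the tumor is of nerve sheath origin, and at 7.33 ± 7.05 CPM (SD, n = 7) in the fibroblast gate, so that gate also held some glial transcripts. No label names a batch, so libraries were divided by cell number, UMIs and genes per cell and mitochondrial share, taking the tightest of 63 splits (0.488 of the variation left within sets, 0.548 for the next). The first set, set 1, was made up of irradiated 1, control 2 and control 3, and the other 4 tumors made up set 2. They are called technical sets below as a name only. No label shows whether the split is technical or lies in the tumors themselves, and this was not tested. The sets did not overlap in cell number or median UMIs per cell, but they did in mitochondrial share, where control 1 of set 2 had a value of 4.46%, between the 4.29% of irradiated 1 and the 4.82% of control 2 in set 1. Irradiated 1 is the single irradiated tumor of set 1 and control 1 the single control of set 2, so differences within a set are values with no test.

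RefSeq promoter windows (build GRCm38.p6) were available for 5 of the 8 genes, and 3 of them are shown because C1qb and C1qc shared a macrophage pattern while C3 was highest in fibroblasts. Each run is the 250 bases before the table's start site, read 5′ to 3′ on the minus strand. Capitals mark, on either strand, AANNGAAA (the core of interferon regulatory factor sites), TTCNNNGAA (the interferon-gamma activated sequence), TTNNGNAA (a C/EBP-type site) or AGGAAG (an ETS core that is part of sites of the myeloid factor PU.1), and these patterns can overlap.
C1qb, chr4:136886201-136886450: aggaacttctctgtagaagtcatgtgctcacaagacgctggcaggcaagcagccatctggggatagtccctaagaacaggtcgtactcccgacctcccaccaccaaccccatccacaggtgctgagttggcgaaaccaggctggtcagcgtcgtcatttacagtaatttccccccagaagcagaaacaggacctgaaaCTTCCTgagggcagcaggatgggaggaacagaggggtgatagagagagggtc
C1qc, chr4:136892915-136893164: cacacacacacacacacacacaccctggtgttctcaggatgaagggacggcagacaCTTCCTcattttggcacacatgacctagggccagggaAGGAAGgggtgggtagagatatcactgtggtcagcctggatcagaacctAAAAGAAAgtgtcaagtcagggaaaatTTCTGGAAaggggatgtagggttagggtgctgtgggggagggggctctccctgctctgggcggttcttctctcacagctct
C3, chr17:57228137-57228386: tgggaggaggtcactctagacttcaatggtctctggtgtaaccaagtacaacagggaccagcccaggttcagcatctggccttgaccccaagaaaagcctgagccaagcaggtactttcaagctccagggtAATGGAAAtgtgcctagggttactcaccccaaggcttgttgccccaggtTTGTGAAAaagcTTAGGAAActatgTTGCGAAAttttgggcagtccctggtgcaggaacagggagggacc
The C3 window held 3 matches to TTNNGNAA and 1 to AANNGAAA, C1qc held 1 of each, and C1qb held 0 of either. TTCNNNGAA was found in 0 of these 3 windows. Among 32851 promoter windows of the same length, 36.8% held TTNNGNAA, 21.3% held AANNGAAA and 7.02% held TTCNNNGAA. AGGAAG was found at 1 site in C1qb, 2 sites in C1qc and 0 sites in C3, and in 29.5% of all windows. Of the macrophage genes whose windows are not shown, C3ar1 held 0 AGGAAG, 1 AANNGAAA and 0 TTNNGNAA. C5ar1 held 3 AGGAAG, 0 AANNGAAA and 1 TTNNGNAA, all downstream of that gene's annotated start. The last bases of the C1qc window lie downstream of the gene's annotated start, and none of the matches is among them. The genes without a window were C1qa, Cfb and Serping1.

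The C1q chains were macrophage transcripts in every tumor. In the macrophage gate C1qa was at 5801, 4247, 4726 and 4237 CPM in irradiated 1 to 4 and at 4567, 4692 and 5221 CPM in controls 1 to 3. C1qb, the B chain, ran from 3386 to 4167 CPM and C1qc, the C chain, from 2781 to 3807 CPM over the 7 tumors. No tumor stood apart, and the 2 groups overlapped for all 3 chains. After each cell was thinned to 2000 UMIs, 92.1% of macrophage gate cells held a C1qa UMI (95% Wilson interval 91.6 to 92.6), and 88.7% held all 3 chains. In T/NK cells, which do not make C1q, the thinned share for C1qa was 9.76%, with a median depth of 3593 UMIs against 6857 in macrophages. Thinning left out 850 macrophage gate cells, and intervals cover counting error only.

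The C3a and C5a receptors followed C1q. C3ar1 stood at 272, 435, 311 and 349 CPM in the macrophage gate of irradiated 1 to 4 and at 368, 264 and 265 CPM in controls 1 to 3. C5ar1 stood at 336, 393, 366 and 395 CPM against 363, 286 and 306 CPM. Control 1 lay inside the irradiated range for both receptors, so the groups overlapped. In stromal gates each receptor was near 0, with 3 UMIs in all in the fibroblast gate and 2 UMIs (C3ar1) or 8 UMIs (C5ar1) in the endothelial gate.

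**Figure D1:**
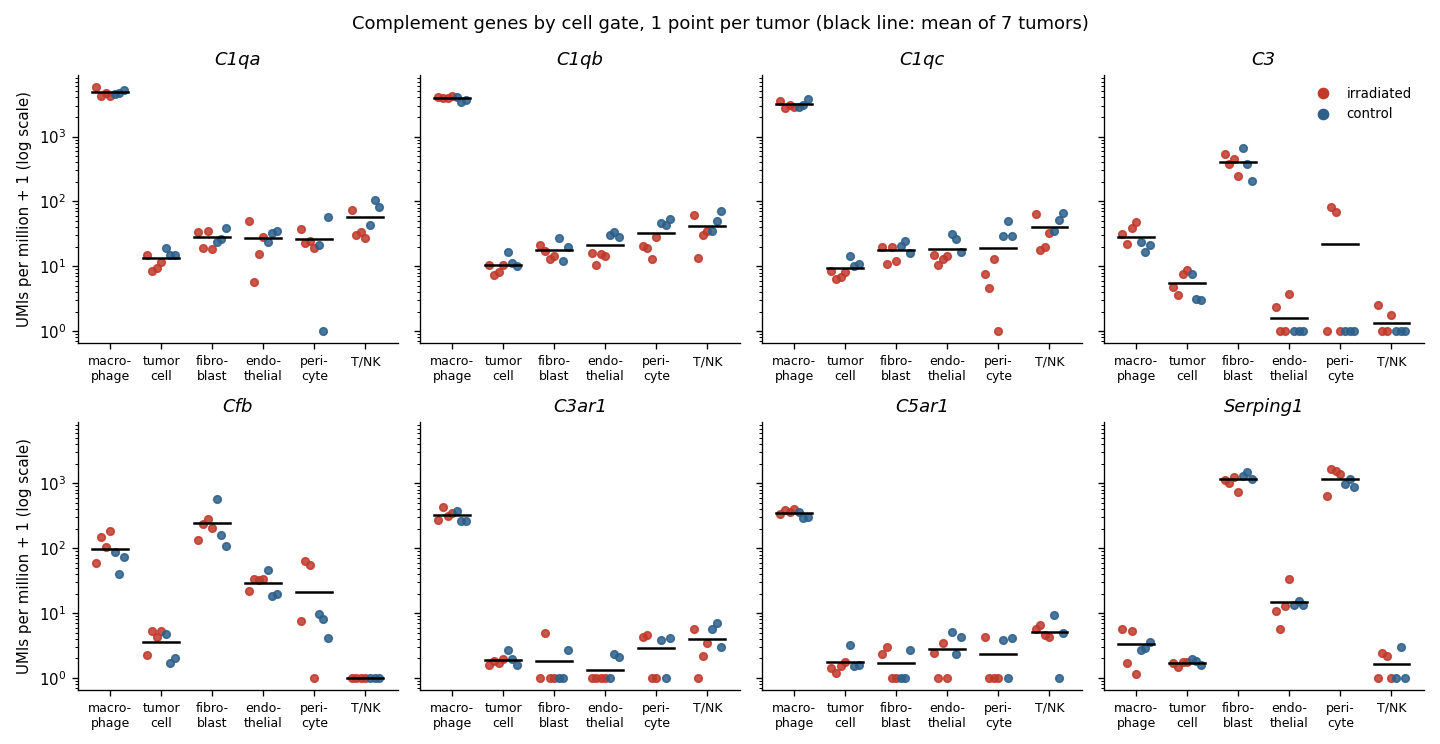
Level of each complement gene in 6 cell gates, in CPM plus 1 on a log axis, with 1 point per tumor (red, irradiated; blue, control) and a black line at the mean of 7 tumors. C1qa, C1qb, C1qc, C3ar1 and C5ar1 are highest in the macrophage gate in all 7 tumors, C3 in the fibroblast gate, and Serping1 in the fibroblast and pericyte gates.

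The gates were next compared within tumors. All 8 genes were higher in the macrophage gate than in the tumor cell gate (8 of 8 tested, where 41.3% of 15065 genes were called higher and 43.9% lower). The log2 difference was 9.11 ± 0.20 (SE) for C1qa, 9.01 ± 0.18 for C3ar1 and 9.48 ± 0.36 for C5ar1, each higher in 7 of 7 tumors. It was 5.79 ± 0.17 for Cfb and 3.17 ± 0.15 for C3, again in 7 of 7 tumors (edgeR, adjusted p = 2.18e-10 and 4.73e-09). Serping1 was low in both gates, at 2.30 ± 1.69 and 0.722 ± 0.150 CPM (SD, n = 7), with a log2 difference of 1.94 ± 0.43 (adjusted p = 0.00158, higher in 6 of 7 tumors).

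In droplet data, free RNA adds UMIs to cells that do not express a gene. For 8 other macrophage genes (Tyrobp, Fcer1g, Ctss, Laptm5, Cybb, Aif1, Cd53 and Ms4a7) the level in the tumor cell gate was 0.151% to 0.369% of that in macrophages. C1qa, C1qb and C1qc lay within that range at 0.259%, 0.247% and 0.266%, as did C3ar1 (0.274%) and C5ar1 (0.213%). Cfb (2.59%) and C3 (16.1%) lay above it. The tumor cell gate held C3 at 3.75, 2.63, 6.52 and 7.85 CPM in irradiated 1 to 4 and at 6.65, 2.17 and 2.08 CPM in controls 1 to 3, with UMIs in 738 of 14251 cells and up to 45 UMIs in 1 cell.

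C3 was a fibroblast transcript first. In the fibroblast gate it stood at 534, 370, 446 and 244 CPM in irradiated 1 to 4 and at 664, 371 and 204 CPM in controls 1 to 3. The lowest fibroblast value lay above the highest macrophage value, 46.6 CPM. The log2 difference from the macrophage gate was 3.56 ± 0.28 (SE, edgeR adjusted p = 8.02e-08) and from the tumor cell gate 6.59 ± 0.33 (adjusted p = 2.46e-07), in 7 of 7 tumors each. C3 UMIs were found in 225 of 310 fibroblast gate cells (72.6%), and the 31 cells with the most held 46.6% of them.

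Cfb was shared between fibroblasts and macrophages. Fibroblast gate levels were 133, 235, 279 and 204 CPM in irradiated 1 to 4 and 572, 159 and 109 CPM in controls 1 to 3, so control 1 stood above all others. Macrophage gate levels were 58.5, 146, 104 and 180 CPM and 85.4, 39.5 and 71.2 CPM in the same order. The ranges of the gates overlapped, but fibroblasts were higher in 7 of 7 tumors, by 0.95 ± 0.27 on the log2 scale (edgeR, adjusted p = 0.00591). With no filter on low counts this became 0.72 (adjusted p = 0.0531).

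Serping1 marked fibroblasts and pericytes. The C1 inhibitor transcript stood at 1145, 1012, 1239 and 724 CPM in the fibroblast gate of irradiated 1 to 4 and at 1308, 1475 and 1179 CPM in controls 1 to 3. In the pericyte gate it stood at 630, 1645, 1564 and 1382 CPM and at 978, 1148 and 885 CPM. These 2 gates overlapped, with pericytes higher in 3 of 7 tumors, and each lay above all other gates in every tumor. The fibroblast gate exceeded the macrophage gate by 8.94 ± 0.45 and the tumor cell gate by 10.65 ± 0.20 on the log2 scale (SE, edgeR, adjusted p = 7.42e-10 and 6.9e-17). Serping1 UMIs were found in 94.5% of fibroblast gate cells and 94.9% of pericyte gate cells, and 71.9% of fibroblast gate cells held both Serping1 and C3.

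Against macrophages, fibroblasts had 3 members higher (C3, Cfb and Serping1) and 5 lower (the C1q chains and both receptors) of 8 tested, where 31.8% of 12439 genes were higher and 38% lower. Against tumor cells, 6 of 6 tested members were higher in fibroblasts, where 21.4% of 13913 genes were higher and 27.9% lower, while C3ar1 and C5ar1 did not pass the filter on low counts. The C1q chains were among these 6, by 0.82 to 1.15 on the log2 scale, at 16.8 to 26.9 CPM. That was 0.428% to 0.554% of their macrophage level, and the 8 other macrophage genes stood at 0.334% to 1.35% in the same gate.

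Pericytes had little C3. It was at 80.8 and 68.5 CPM in irradiated 2 and 3 and at 0 in the other 5 tumors, and all 45 UMIs came from 4 of 195 cells. Cfb followed, at 62.4 and 53.6 CPM in the same tumors and at most 8.58 CPM in the others. The 9 fibroblast markers summed to between 340 and 1972 CPM in pericytes of irradiated tumors and between 448 and 609 CPM in controls, and their part in these values was not tested.

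Endothelial cells carried Cfb at an intermediate level, 45.4, 17.3 and 18.8 CPM in controls 1 to 3 and 20.8, 33.1, 31.4 and 32.5 CPM in irradiated 1 to 4. This was lower than in macrophages by 1.98 ± 0.18 on the log2 scale (SE, edgeR, adjusted p = 1.78e-08) and lower in 7 of 7 tumors. Serping1 was higher than in macrophages, by 2.36 ± 0.70 (adjusted p = 0.0162), in 7 of 7 tumors, but passed the threshold no longer without control 2 (adjusted p = 0.0506). Of 8 members tested, 1 was higher and 7 were lower, where 28.4% of 12243 genes were higher and 34.2% lower. Irradiated 2 held 19 endothelial cells, below the minimum of 20, and was left out of this fit, although its level is counted among the 7 tumors. In T/NK cells, 0 of 963 thinned cells held a Cfb UMI, which allows a share of up to 0.312% for cells with a UMI at this depth, not for cells that express the gene.

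The UMIs of each gene were then traced to their gate. Macrophages were 33.6% of the cells kept and held 90.9% of C1qa, 90.5% of C3ar1 and 90.5% of C5ar1 UMIs. They held 75.9% of Cfb UMIs (60.4% to 88.6% over tumors) and 38.5% of C3 UMIs (23.7% to 69.5%). Fibroblasts were 0.904% of cells and held 20.2% of C3, 5.91% of Cfb and 48.6% of Serping1 UMIs. Tumor cells, at 41.6% of cells, held 22.9% of C3 UMIs, and pericytes, at 0.569% of cells, held 23.5% of Serping1 UMIs.

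**Figure D2:**
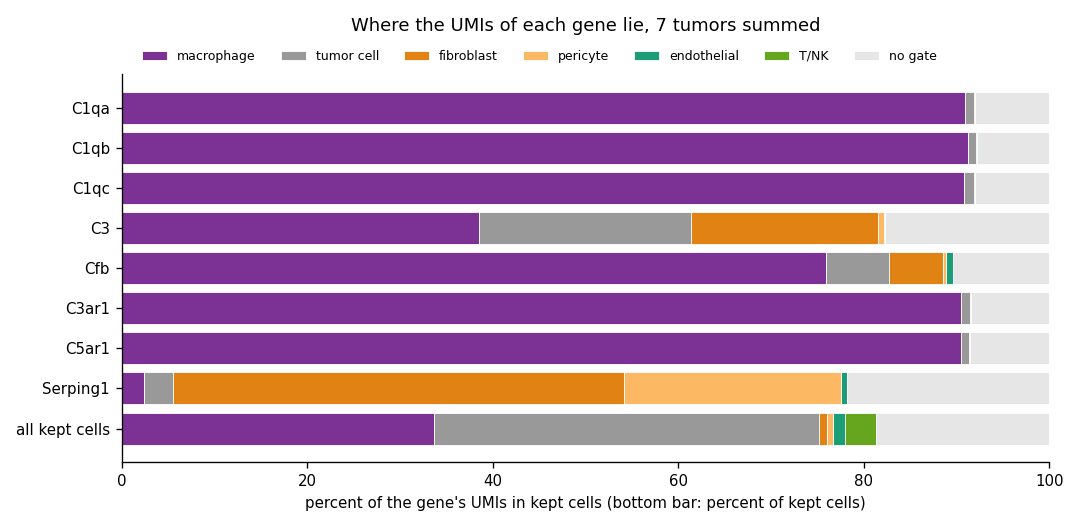
Share of each gene's UMIs that lies in each gate, in percent of the UMIs in kept cells with the 7 tumors summed, and the share of cells in each gate in the bottom bar. Macrophages hold 90.9% of C1qa UMIs, and fibroblasts and pericytes, thin slices of the bottom bar, hold 48.6% and 23.5% of Serping1 UMIs.

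Macrophage gate cells were split by Ly6c2, a marker of inflammatory monocytes, and Mrc1, the mannose receptor of resident-type macrophages. The split gave 683 cells with Ly6c2 alone, from 22 in irradiated 1 to 332 in irradiated 4, and 8833 with Mrc1 alone. C1qa was at 2492, 2240, 1645 and 1562 CPM in Ly6c2 cells of irradiated 1 to 4 and at 1922, 2126 and 1604 CPM in those of controls 1 to 3. In Mrc1 cells it was at 6003, 4817, 5236 and 5313 CPM and at 5090, 5039 and 5504 CPM. The sides did not overlap, and Ly6c2 cells were lower by 1.47 ± 0.08 on the log2 scale (SE, edgeR, adjusted p = 1.55e-33).

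C1qb and C1qc were lower in Ly6c2 cells by 1.09 ± 0.08 and 1.52 ± 0.08, in 7 of 7 tumors. The C5a receptor C5ar1 was lower by 0.50 ± 0.09 (edgeR adjusted p = 6.56e-06), in 7 of 7 tumors. C3ar1 differed by -0.24 ± 0.10 (adjusted p = 0.0396), was lower in 5 of 7 tumors, and passed the threshold no longer when irradiated 2 (adjusted p = 0.0537), irradiated 3 (0.214) or control 1 (0.156) was left out.

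The alternative pathway genes ran the other way. C3 was at 85.0, 45.8, 57.4 and 82.2 CPM in Ly6c2 cells of irradiated 1 to 4 and at 51.8, 58.7 and 74.6 CPM in those of controls, against 27.0, 13.5, 33.2 and 36.4 CPM and 20.8, 13.1 and 18.7 CPM in Mrc1 cells. The lowest Ly6c2 value lay above the highest Mrc1 value. The difference was 1.43 ± 0.15 on the log2 scale (SE, edgeR adjusted p = 1.68e-14). The Ly6c2 values of irradiated 1 and control 2 rest on only 9 C3 UMIs each, and irradiated 4 gave 214 of the 361 C3 UMIs in Ly6c2 cells. Cfb was higher by 1.34 ± 0.22 (adjusted p = 0.00212), in 7 of 7 tumors, and ranged from 170 to 257 CPM in Ly6c2 cells and from 34.8 to 163 CPM in Mrc1 cells. Of 7 members tested, 2 were higher and 5 lower in Ly6c2 cells, where 17% of 11063 genes were higher and 18.8% lower. Serping1 had 0 UMIs in Ly6c2 cells, and 0 of 655 thinned cells allow a share of up to 0.458% for cells with a UMI at this depth.

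**Figure D3:**
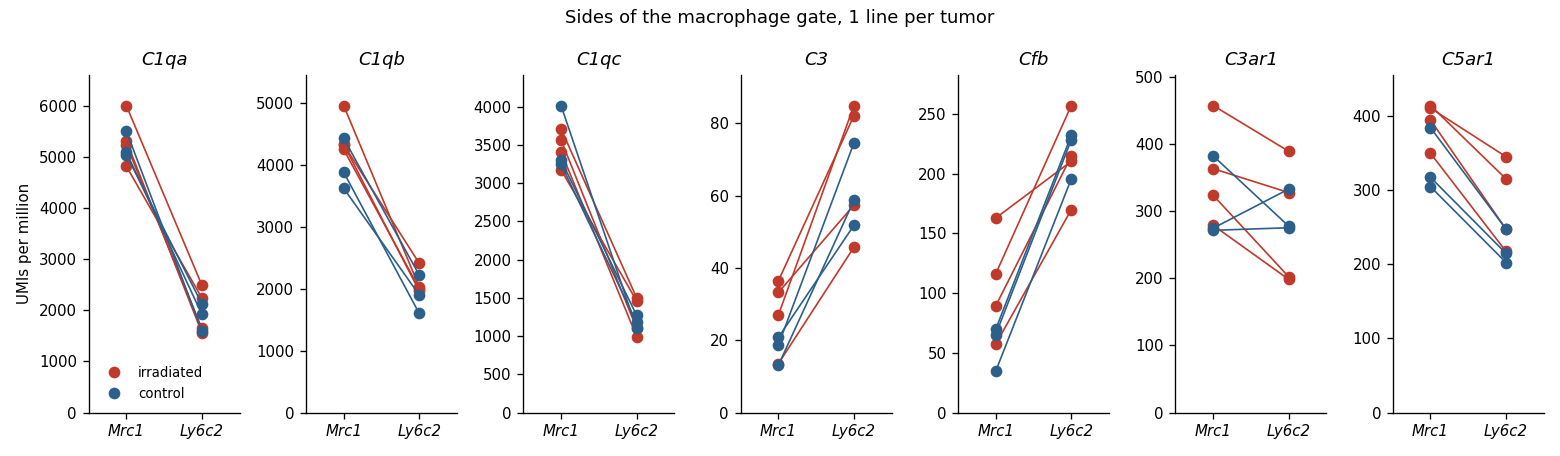
Level of 7 complement genes in the Mrc1 and the Ly6c2 side of the macrophage gate, in CPM on a linear axis, with 1 line per tumor (red, irradiated; blue, control). C1qa, C1qb, C1qc and C5ar1 fall from Mrc1 to Ly6c2 cells in 7 of 7 tumors, and C3 and Cfb rise in 7 of 7.

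Cfb was found more often in macrophages that held C3. Of thinned cells with a C3 UMI, 26.5% also held a Cfb UMI, against 14.1% of those without C3. The share was higher in the C3 cells of 7 of 7 tumors, by the least in irradiated 3 (20.5% against 16.8%). These shares are descriptions, since the cells of a tumor share their library.

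The ratio of C1qa to C1qb UMIs in macrophages differed between set 1 and set 2. It was 1.39 to 1.40 in the 3 tumors of set 1 and 1.02 to 1.19 in the 4 tumors of set 2, and each set held tumors of both groups. In Mrc1 cells alone it was 1.39 to 1.42 and 1.07 to 1.21, so the sets stayed apart on that side. The ratio of C1qa to C1qc, 1.52 ± 0.08 (SD, n = 7), showed no such gap.

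The main question of the design was whether irradiation changed these levels. In the macrophage gate 0 of 8 members and 0% of 12905 genes passed the threshold in edgeR, with 647 genes at an unadjusted p under 0.05 and 3 genes called by DESeq2. The C1q chains had log2 changes of -0.05 ± 0.14 (SE) for C1qa, 0.10 ± 0.10 for C1qb and -0.11 ± 0.14 for C1qc. Those of the receptors were 0.17 ± 0.18 (C3ar1) and 0.20 ± 0.10 (C5ar1), and that of Serping1, at 0.170 to 4.62 CPM, was 0.18 ± 0.88. The median over the 8 members was 0.18, against -0.0037 over all genes tested.

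C3 had the smallest p among the members in macrophages. It was at 29.9, 20.8, 38.5 and 46.6 CPM in irradiated 1 to 4 and at 22.8, 15.4 and 20.3 CPM in controls 1 to 3. Of the irradiated tumors, 3 lay above all controls, and irradiated 2 lay below control 1. The log2 change was 0.78 ± 0.27 with an unadjusted p of 0.0204 and an adjusted p of 0.835 (edgeR). Within set 1 the difference of mean log2 CPM was 0.75 and within set 2 it was 0.55.

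For Cfb, with the macrophage levels given above, the change was 0.88 ± 0.40 (SE, edgeR adjusted p = 0.835). Irradiated 2, 3 and 4 lay above all controls, and irradiated 1 lay below 2 of them. Within set 1 the difference was 0.14 and within set 2 it was 0.71, and a fit that included the set gave a change of 0.44 ± 0.33. No member had groups that did not overlap in macrophages, against 2.94% of genes higher and 2.14% lower.

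The share of Ly6c2 cells, in which C3 and Cfb were higher, also differed between tumors. They made up 1.22%, 9.23%, 4.90% and 21.5% of the macrophage gate in irradiated 1 to 4 and 7.47%, 1.80% and 1.99% in controls 1 to 3. The difference of 5.45 points had an exact two-sided permutation p of 0.457. These shares were taken without thinning, so they can depend on depth. Median UMIs per cell, over all cells of a library, ran from 6058.5 to 9507 in set 1 and from 9990 to 17930.5 in set 2. In Mrc1 cells alone the irradiated change was 0.62 ± 0.32 for C3 and 0.88 ± 0.38 for Cfb, and in Ly6c2 cells alone it was 0.15 ± 0.29 and -0.04 ± 0.18 (SE, edgeR, adjusted p between 0.892 and 1.00). The part of depth in the Ly6c2 share was not tested, and the part of that share in the difference between groups was not tested further.

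The share of macrophage gate cells with a UMI was compared as well. After thinning, Cfb was found in 19.2% ± 7.47 of cells in irradiated tumors (SD, n = 4) and 11.7% ± 3.81 in controls (SD, n = 3), an exact two-sided permutation p of 0.2 and an adjusted p of 0.533 over 8 genes. C3 was found in 6.32% ± 2.21 and 3.73% ± 0.621 (exact permutation p = 0.2, adjusted p = 0.533), and without thinning in 18.4% ± 6.85 and 9.79% ± 5.72. C1qa was found in 89.3% ± 6.93 and 93.6% ± 4.73 (exact permutation p = 0.514). No gene passed the adjusted threshold, and the smallest p that 35 splits allow is 0.0286.

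**Figure D4:**
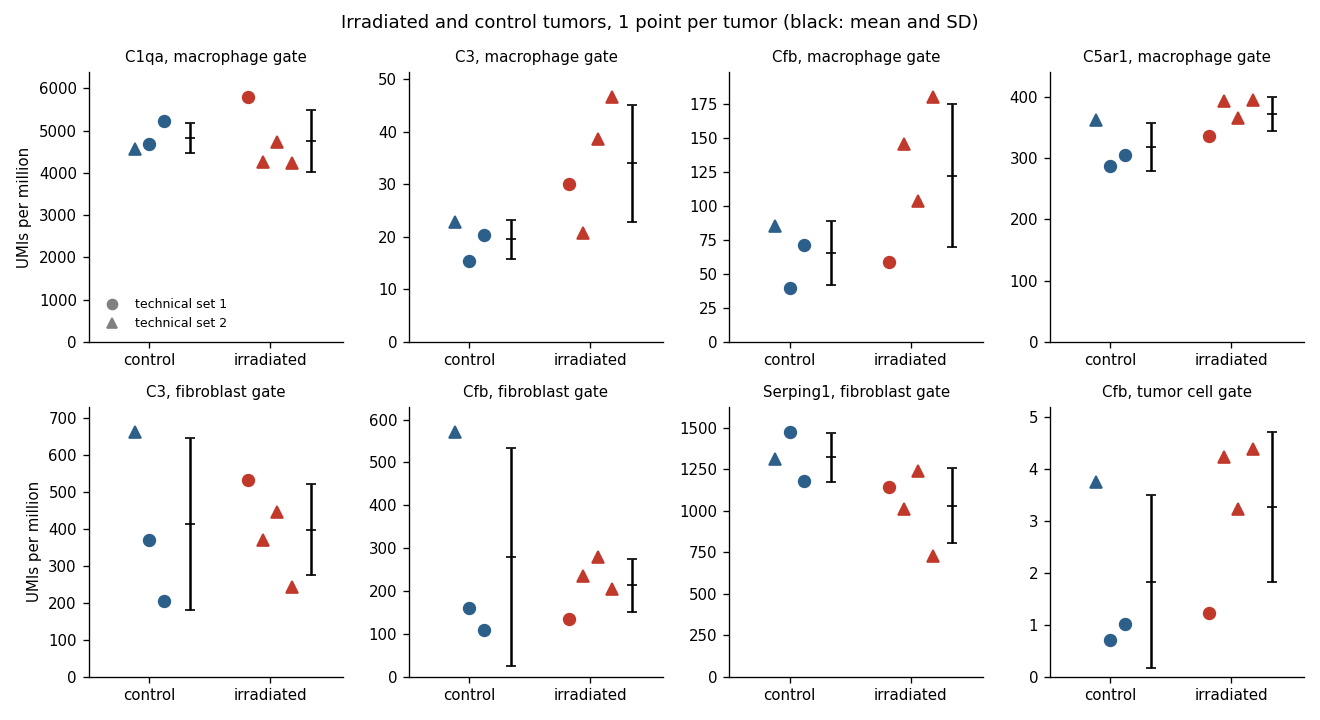
Levels in irradiated and control tumors for 8 pairs of gene and gate, in CPM on linear axes from 0, with 1 point per tumor, circles for technical set 1, triangles for set 2, and the mean and SD in black. C3 in macrophages runs from 20.8 to 46.6 CPM in irradiated tumors and from 15.4 to 22.8 CPM in controls, and Cfb in tumor cells separates the sets.

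In the tumor cell gate 0 of 8 members and 0% of 17292 genes passed (edgeR, 219 genes at an unadjusted p under 0.05, 0 called by DESeq2). C1qc, at 7.57, 5.39, 5.92 and 7.28 CPM in irradiated 1 to 4 and 13.3, 9.05 and 9.87 CPM in controls 1 to 3, had no overlap between the groups, as 0.867% of genes did in the lower direction and 1.25% in the higher. Its log2 change was -0.76 ± 0.17 (SE, edgeR adjusted p = 1.00), and those of C1qa and C1qb were -0.63 ± 0.22 and -0.57 ± 0.20. That of C5ar1, at 0.177 to 2.21 CPM, was -1.29 ± 0.55 (edgeR adjusted p = 1.00), and -0.43 without control 1, the tumor with the highest value. Within set 1 the C1qc difference was -0.32 and within set 2 it was -1.10. The 8 other macrophage genes stood at a median of 0.218% of their macrophage level in irradiated tumors and 0.334% in controls, and 8 of 8 were lower in irradiated tumors, as was the sum of the 8 macrophage markers in that gate (18.0 to 28.5 CPM against 29.4 to 39.6 CPM), and their part in the C1q values was not tested. The median over the 8 members was -0.57, against 0.0053 over all genes tested.

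The gap between the macrophage and tumor cell gates was compared between the groups. In the tumor cell gate the C1q chains, C3ar1 and C5ar1 lay within the free RNA range of the other macrophage genes given above. Their gap therefore cannot separate a change in tumor cells from one in free RNA, and the part of free RNA was not tested. In irradiated tumors the gap was wider by 0.62 on the log2 scale for C1qc and 0.63 for C1qb (exact two-sided permutation p = 0.0286 each, the smallest possible), with an adjusted p of 0.114 over 8 genes. It was wider by 1.27 for C5ar1 and 0.59 for C1qa (exact permutation p = 0.0571 each) and by 0.57 for C3ar1 (exact permutation p = 0.114). Without control 1 the values were 0.38 for C1qc, 0.73 for C5ar1 and 0.34 for C3ar1. For C3 the difference in the gap was 0.15 and for Cfb -0.19 (exact permutation p = 0.743 and 0.686). No gene passed the adjusted threshold.

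The log2 changes of C3 and Cfb in tumor cells were 0.48 ± 0.46 and 0.80 ± 0.58 (SE, edgeR, adjusted p = 1.00), and without control 1 they were 1.14 and 1.75 (adjusted p = 0.756 each). Cfb was at 1.23, 4.22, 3.23 and 4.38 CPM in irradiated 1 to 4 and 3.74, 0.712 and 1.02 CPM in controls 1 to 3. The 4 tumors of set 2 all lay above the 3 of set 1, and within set 2, against control 1 alone, the difference was 0.06. Serping1 lay between 0.497 and 0.953 CPM in all 7 tumors.

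In the fibroblast gate, 0 of 4 tested members and 0% of 7257 genes passed (edgeR, 213 genes at an unadjusted p under 0.05, 2 called by DESeq2). Serping1 had a log2 change of -0.39 ± 0.31 (SE), and irradiated 4, at 724 CPM, was the lowest tumor. That of C3 was -0.06 ± 0.41 and that of Cfb -0.39 ± 0.52. Without control 1, which held 21 fibroblast gate cells, these became 0.43 and 0.61. The 4 tested members had a median of -0.29, against 0.0050 over all genes tested. No tested member had groups that did not overlap, against 2.88% of genes higher and 1.28% lower.

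In the endothelial gate, 0 of 3 tested members and 0% of 7556 genes passed (edgeR, 355 genes at an unadjusted p under 0.05, 0 called by DESeq2), and the log2 change of Cfb was 0.06 ± 0.42. The fit held 3 irradiated and 3 control tumors, since irradiated 2 was left out. C1qb had a change of -1.06 ± 0.35 (SE, edgeR adjusted p = 0.917), with a mean of 14.4 CPM in the irradiated and 30.0 CPM in the control tumors of the fit, and it was the 1 of 3 tested members whose groups did not overlap, against 4.25% of genes lower and 5.69% higher. Of the 8 other macrophage genes, 7 were lower in irradiated endothelial cells, and their part in this value was not tested.

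C3 and Cfb were set against a list of 14 interferon-gamma response genes (among them Irf1, Gbp2, Cxcl9 and Psmb8), scored as the mean log2 CPM in the same gate, because complement genes are known to respond to this cytokine. Of the 6 relations computed, the 3 in tumor cells are given without a pooled r, because the tumors formed separate clusters by technical set (list 2.88 to 3.30 in set 1 and 4.07 to 5.50 in set 2). In macrophages the list also divided the sets, as given below. The p-values there treat the 7 tumors as exchangeable, so they cannot separate a relation from a difference between the sets. Pearson's r in macrophages over 7 tumors was 0.83 for C3 (exact permutation p = 0.0179, adjusted p = 0.0357) and 0.86 for Cfb (p = 0.0141, adjusted p = 0.0357). Spearman's rho was 0.82 and 0.86 (exact permutation p = 0.0341 and 0.0238, adjusted p = 0.0683 each). For Serping1, r was -0.65 and rho -0.46 (exact permutation p = 0.111 and 0.302).

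Without irradiated 4 and control 3, the tumors farthest from the median of the list, r was 0.71 for C3 and 0.92 for Cfb. The list ran from 4.74 to 5.29 in set 1 and from 5.39 to 6.56 in set 2. Every tumor of set 1 thus lay below those of set 2. Macrophage Cfb was divided in the same way (39.5 to 71.2 CPM in set 1 and 85.4 to 180 CPM in set 2), while C3 overlapped between the sets. The mean of the list was 5.83 in irradiated tumors and 4.99 in controls. Tumors of set 1 also had the lowest shares of Ly6c2 cells (1.22% to 1.99%, without thinning) and the lowest median UMIs per cell. Irradiated 4 had the highest share (21.5%). The parts of the set, the group, depth and the Ly6c2 share in these relations were not tested. Each set held 3 or 4 tumors, too few for an r of its own.

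**Figure D5:**
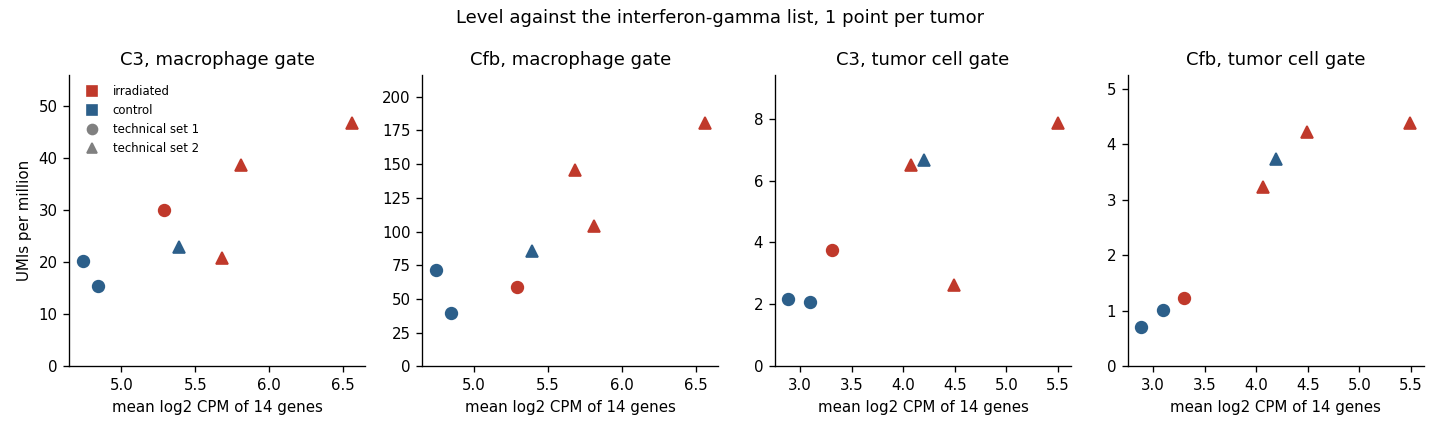
C3 and Cfb in CPM against the mean log2 CPM of 14 interferon-gamma response genes, in the macrophage and tumor cell gates, with 1 point per tumor, red for irradiated and blue for control, circles for technical set 1 and triangles for set 2. In macrophages irradiated 4 has the highest list value (6.56) and the highest C3 and Cfb, and in tumor cells the sets form separate clusters.

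A list of 46 other complement genes was followed in the same fits. Between groups 0 of 23 tested passed in macrophages, 0 of 24 in tumor cells, 0 of 11 in fibroblasts and 0 of 7 in endothelial cells (edgeR, with the backgrounds given above). Their median log2 change was -0.12, 0.06, -0.09 and -0.12, in the order given. Among the widest in macrophages at 10 CPM or more were the receptor subunit Itgax (0.42 ± 0.28) and properdin, Cfp (0.35 ± 0.43). In tumor cells they were the lectin pathway protease Masp1 (0.43 ± 0.30), C1qbp (-0.32 ± 0.28) and the regulator Cd46 (0.23 ± 0.23). In fibroblasts they were Masp1 (0.67 ± 0.82), Csmd1 (-0.56 ± 0.47) and Cd55 (-0.51 ± 0.40), and in endothelial cells C1qbp (-0.29 ± 0.23), Clu (0.28 ± 0.51) and Cr1l (0.20 ± 0.25).

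Between gates, fibroblasts had 13 of 21 tested genes higher and 8 lower than macrophages, where 31.8% of all genes were higher and 38% lower. C1s1, a protease of the C1 complex, stood at 296 CPM in fibroblasts and 0.768 CPM in macrophages (log2 difference 8.30 ± 0.35), and Itgam, a subunit of complement receptor 3, at 1.30 and 398 CPM (-8.49 ± 0.34). Csmd1, a complement control protein, was higher in fibroblasts by 7.24 ± 0.54. Against tumor cells, fibroblasts had 12 of 16 tested genes higher and 2 lower, where 21.4% of all genes were higher and 27.9% lower, led by the inhibitor Cd55 (10.03 ± 0.38), Csmd1 (9.38 ± 0.33) and C2 (5.55 ± 0.18).

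Macrophages had 12 of 21 tested genes higher and 7 lower than tumor cells (all genes, 41.3% and 43.9%), with Itgam (9.54 ± 0.19), Cd93 (8.94 ± 0.18) and Itgb2 (8.61 ± 0.13) the widest. Endothelial cells had 6 of 17 higher and 8 lower than macrophages (all genes, 28.4% and 34.2%), with Itgam (-8.83 ± 0.24), C4b (-7.22 ± 0.35) and properdin (-6.50 ± 0.29) the widest. In Ly6c2 against Mrc1 cells, 2 of 15 were higher and 7 lower (all genes, 17% and 18.8%). C4b, whose reads its near-identical copy C4a can share, was lower by 1.99 ± 0.18 and Cd93 by 1.09 ± 0.13, while Itgax was higher by 1.73 ± 0.19 (SE, edgeR).

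Over 42 sums of tumor and gate and 9908 genes, the gene most like C1qb in level was Lyz2 (Pearson's r 0.98), one of the markers of the macrophage gate, followed by Fcrls and Pf4 (0.97 each). C1qa was most like Ccl12 (0.95), Cltc (0.93) and Trem2 (0.93), and C1qc most like Lyz2 (0.94), Aif1 and Ctss (0.92 each). C3ar1 was most like Fcgr4 (0.90), Sirpb1c (0.89) and Ccl12 (0.88), and C5ar1 most like Lyz2 (0.91), Clec4n and Clec4a1 (0.89 each). C3 was most like Col14a1 (0.89), one of the markers of the fibroblast gate, Cilp (0.87) and Htra3 (0.86), Cfb most like Gab2 and Man1c1 (0.88 each) and Thbs1 (0.86), and Serping1 most like Chsy3 (0.96), Prkg1 and Eda (0.95 each). Among the members, C1qb and C1qc had r 0.93 and C3 and Cfb 0.71. These values are descriptions, since sums of 1 tumor share a library and those of 1 gate share their cell type.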

How the data were processed

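Single-cell libraries (10x Genomics 3′ chemistry, papain dissociation, 10000 cells loaded) were deposited by the authors as UMI counts per gene and called cell. The file headers name Cell Ranger 8.0.0, the study's methods name another version, and the submitters' processing notes name Seurat 4.4 and build mm10. Whether intronic reads were counted is not given in the sources used here. Replicates were separate animals, and replicate numbers were used as names only.

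Cells beyond 3 median absolute deviations in UMIs, genes, mitochondrial or ribosomal share were removed. Gate rules were set from marker genes alone. Counts were summed per tumor and gate (at least 20 cells) and tested with edgeR 4.0.16 (quasi-likelihood, TMM, filterByExpr, Benjamini-Hochberg over all genes tested, threshold 0.05), with the tumor as a block between gates. DESeq2 1.42.0 was an alternative. The fits were tested on simulated data. Levels are CPM, log2 values used a prior count of 2, and shares used exact permutation (scipy 1.17.1). Each transcript gives 1 3′ tag, so levels are not divided by length. Members and gene lists were chosen with earlier results of these data known. The text names the 8 members, the other complement genes past the threshold (or the 3 widest at 10 CPM or more), and 3 genes most like each member. A named gene that this rule gives is not reported here.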

Additional observations from a re-analysis of the deposited data

Results flagged for a closer look

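Of 40 groups of 4 irradiated tumors (8 genes in 5 gates), 3 held 1 tumor far from the rest, where chance alone flags about 1 in 20. Cfb in endothelial cells was lowest in irradiated 1, at 20.8 CPM, against 33.1, 31.4 and 32.5 CPM in irradiated 2, 3 and 4. C3ar1 in fibroblasts was at 3.98 CPM in irradiated 2 and at 0 in the other irradiated tumors, and C5ar1 in pericytes was at 3.30 CPM in irradiated 1 and at 0 in the others. The last 2 values rest on 3 or fewer UMIs in the whole gate.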

How the results depend on the processing

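Of the alternative values for single genes, 783 kept their direction and their side of the threshold, 38 changed sign and 8 lost significance. Among the 783, relations to the interferon-gamma list without the tumors farthest from its median were compared by sign only, with no p computed. The number of genes called between groups became 3 in macrophages and 2 in fibroblasts with DESeq2, 1 in fibroblasts with a stricter gate and 53 in endothelial cells with no filter on low counts, and 0 to 3 in endothelial cells when 1 tumor was left out (3 without irradiated 1, 1 without control 2). None of the 38 values had passed the threshold before, and the cause was not tested.

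In macrophages, C1qa became 0.071 and C1qc 0.023 with the technical set in the fit, and Serping1 -0.096 with the stricter gate. In 2 alternatives chosen after seeing the data, C1qa became 0.0048 in Mrc1 cells, and in Ly6c2 cells C1qa, C1qc, C3ar1 and Cfb became 0.040, 0.060, -0.013 and -0.035. In fibroblasts, C1qa became 0.028 with the technical set, and C3 and Cfb 0.56 and 0.78 with the stricter gate. In endothelial cells, C1qa became -0.31 with all deposited cells and Cfb -0.21 with the technical set.

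With 1 tumor left out, the log2 change in macrophages ranged from -0.17 to 0.022 for C1qa, -0.20 to 0.024 for C1qc and -0.35 to 0.60 for Serping1. In fibroblasts it ranged from -0.38 to 0.053 for C1qa, -0.39 to 0.43 for C3 and -0.78 to 0.61 for Cfb, and in endothelial cells from -0.58 to 0.35 for C1qa and -0.18 to 0.57 for Cfb. The difference in the share of Serping1 cells ranged from -0.098 to 0.0068 points, and the gap between gates from -0.27 to 0.48 for C3, -0.66 to 0.13 for Cfb and -0.84 to 0.53 for Serping1.

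With the replicate block, 0 genes were called in each of the 4 gates, C3 became 0.25 in fibroblasts and Cfb -0.28 in endothelial cells. Deviations of same-numbered tumors correlated at -0.64, -0.36 and -0.084 in macrophages, -0.63, -0.12 and 0.20 in tumor cells and -0.28, -0.021 and -0.12 in fibroblasts. These values cannot decide whether the numbers pair the tumors, since same-numbered tumors lie in different technical sets.

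Calls were lost for C1qb in fibroblasts against tumor cells with a stricter gate (adjusted p = 0.0902), for Serping1 in endothelial cells with no filter (0.0683), and for C3ar1 in Ly6c2 cells with DESeq2 (0.103), beside those named in the text (edgeR). Precision is limited by 7 tumors and by gates of 21 to 85 fibroblasts per tumor.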
